A study of Mus musculus with 8 samples.

Results

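The potassium channel genes were described in the spinal cord of mice at postnatal day 14. Members were all protein-coding genes with a name starting with Kcn, except Kcnj8 and Kcnj10, which gave 92 of the 41325 genes in the count tables. A member counted as detected when its mean over the 8 libraries was 10 or more reads, and 76 members were. WT libraries came from C57BL/6J mice and TKO libraries from mice with the genotype Mir34a-/-; Mir34bc-/-; Mir 449-/-, which the label calls a TKO; no Cre or cell-type restriction is named. Each genotype was sampled in the lumbar and in the thoracic cord, with 2 libraries for each of the 4 groups. No group carried another treatment or allele, per the labels. Per its title, the series concerns miR34 in spinal muscular atrophy, a disease of motor neurons, but no label here names a mutation of that disease. Separate mice are not stated in the labels. Lumbar and thoracic libraries of a genotype could come from the same animals, so the 4 libraries per genotype may stand for fewer mice. Each p-value then reflects only how far these samples differ, and that spread may be technical.

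Potassium channels let potassium leave or enter the cell and so set the resting potential, end the action potential and limit repetitive firing. Voltage-gated (Kv) channels open on depolarization, calcium-activated channels follow intracellular calcium, inward rectifiers (Kir) hold the resting potential and buffer potassium in glia, and two-pore channels carry background leak. MicroRNAs of the miR-34/449 family pair through bases 2 to 8, the seed, with sites in the 3' UTR of messenger RNAs and lower their level or translation.

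The mature sequences of the deleted family are shown because they define the sites searched in the channel genes. RefSeq (GRCm38.p6) gave 4 of them, written 5′ to 3′ with the seed in capitals, and these 4 have the same seed.
mmu-miR-34a-5p: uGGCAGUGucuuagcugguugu
mmu-miR-34b-5p: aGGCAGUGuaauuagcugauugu
mmu-miR-449a-5p: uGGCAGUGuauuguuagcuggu
mmu-miR-449c-5p: aGGCAGUGcauugcuagcugg
Mir34a lies on chromosome 4, Mir34b on chromosome 9, and Mir449a and Mir449c on chromosome 13. The mature miR-34c-5p and miR-449b belong to the family too.

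The motif searched was CACTGCC, the complement of the seed, and its longer form CACTGCCA, read on the transcript strand in the longest annotated 3' UTR of each gene (GENCODE vM21, GRCm38). 8 members held the 8-base form, and 7 of them (all but Kcng2) are shown with 11 flanking bases on each side and the match in capitals.
Kcna6, chr6:126737028-126737057, minus strand: cattgtgaaatCACTGCCAccctcccagct
Kcnd3, chr3:105670022-105670051, plus strand: tccttctctgtCACTGCCAaggactgcaga
Kcne1l, chrX:142305154-142305183, minus strand: gggttagccatCACTGCCAggcccgctgca
Kcnj11, chr7:46097577-46097606, minus strand: aaaataaagggCACTGCCAgagtctgccac
Kcnk3, chr5:30624127-30624156, plus strand: ccagcctgagcCACTGCCAgggctctgcct
Kcnk3, chr5:30625095-30625124, plus strand: atgcctgggcaCACTGCCAcagaatatgca
Kcnma1, chr14:23297882-23297911, minus strand: tggggagaatcCACTGCCAgaatcttgaca
Kcnv1, chr15:45106572-45106601, minus strand: aactctgtgtaCACTGCCAcagtttctatg
Kcnk3, which encodes the acid-sensitive leak channel TASK-1, held the 8-base form at 2 places. A match is a description of the sequence and not a shown binding site.

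The libraries held 16195212 to 20907819 gene reads. Both TKO replicate 2 libraries stood apart: mitochondrially encoded genes took 4.99% (lumbar) and 6.53% (thoracic) of their reads against 9.45% to 16.8% in the other 6, and introns took 6.23% and 6.69% against 4.39% to 5.22%. The same libraries had the largest shares of reads on members, 0.398% and 0.387% against 0.278% to 0.33%. Kcnip1 alone, mostly in introns, held 10109 and 12163 of their 64484 and 67564 member reads, against 4615 to 8413 reads in the other 6. The summed RPKM of members (reads scaled to exon length and library depth, the authors' values) was 528 and 495 in the TKO replicate 2 libraries against 391 to 468. Results below are therefore also given without these 2 libraries where that matters. In tissue RNA, fewer cells of a type and less RNA per cell cannot be told apart. The summed CPM (reads scaled to library size) of 10 oligodendrocyte markers was 48599 to 50838 in WT and 58479 to 74947 in TKO libraries. For 8 microglia markers it was 462 to 553 in WT and 500 to 761 in TKO, for 10 neuron markers 5391 to 6287 and 4530 to 5843, and for 7 meningeal fibroblast markers 415 to 753 and 128 to 353. No marker of these 4 lists was at 0 in every library, and the part of cell makeup in the results below was not tested.

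Levels between genes were compared in RPKM, which is per exon length. The auxiliary subunit Kcnab2 (Kv beta2), which binds Kv1 channels, had the highest level, 42.2 ± 12.2 RPKM (SD, n = 8). Other high levels were those of the leak channel Kcnk1 (TWIK-1) at 29.5 ± 4.04, the calcium-binding protein Kcnip3 at 26.5 ± 4.2 and the axonal channel Kcna2 (Kv1.2) at 23.0 ± 1.91 RPKM. Each of these 4 differed from the next in that order by less than the sum of their SDs. By that measure neighbours were not resolved, and they were not compared library by library.

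**Figure D1:**
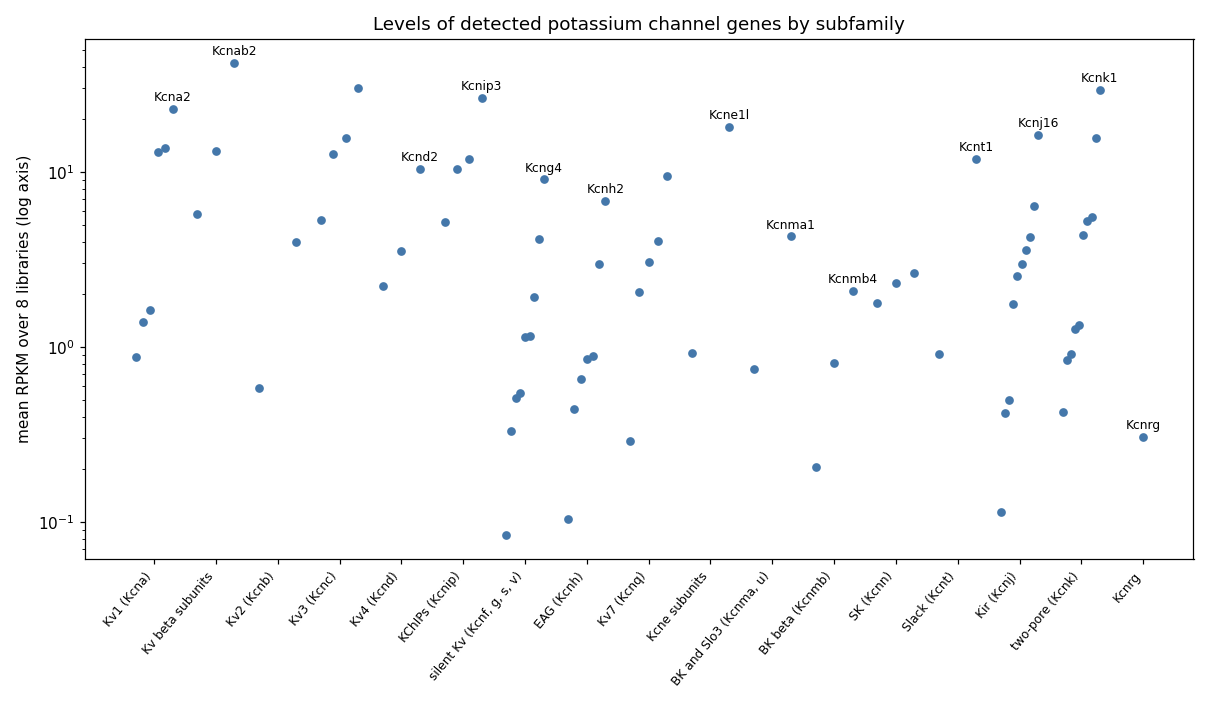
Mean RPKM over the 8 libraries (log axis) of each detected member, 1 point per gene, by subfamily, with the leading genes that the text describes named. Levels run from 0.0837 RPKM for Kcng3 to 42.2 RPKM for Kcnab2.

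By summed level, the two-pore (Kcnk) genes gave 65.3 ± 5.05 RPKM (SD, n = 8), the Kv3 genes 63.8 ± 12.9, the Kv beta subunits 61.1 ± 14.1, the Kcnip genes 53.9 ± 5.86 and the Kv1 genes 53.7 ± 5.02 RPKM. These 5 sums differ by less than the largest of their SDs. Within libraries, however, the Kcnk sum was above the Kcnip sum and above the Kv1 sum in all 8. The Kir genes followed at 39.0 ± 1.51 RPKM, led by Kcnj16 at 16.2 ± 2.01. SK channels, which carry calcium-activated current after the action potential, summed to 6.79 ± 0.4 RPKM, and Kv2 channels to 4.54 ± 0.607.

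Within Kv1, the axonal genes Kcna2, Kcna6 (13.7 ± 1.41 RPKM) and Kcna1 (13.1 ± 2.25) stood above Kcna4 at 1.62, Kcna5 at 1.39 and Kcna3 at 0.872. In Kv7, the M-current gene Kcnq3 had 4.04 ± 0.512 and Kcnq5 2.07 ± 0.482 RPKM, while Kcnq1 stood at 0.29 ± 0.129 RPKM. The leak channels Kcnk9 (TASK-3) and Kcnk3 had 15.7 ± 1.93 and 5.53 ± 1.44 RPKM. The BK channel Kcnma1 had 4.28 ± 0.553 and its neuronal beta subunit Kcnmb4 2.09 ± 0.544 RPKM.

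16 members were under the detection limit. Kcna7, Kcnj1 and Kcnk18 had no reads in any library. Just above the limit were Kcnh4 and Kcnj13, each with a mean of 10.6 reads, Kcnj5 with 11.2, Kcnrg with 13.6 and Kcng3 with 14.2. Just below it were Kcnj4 with 8.5 reads, Kcnj15 with 5.88, Kcnh3 with 5.75, Kcnn4 with 5.38 and Kcne3 with 5.12. The 76 detected members and Kcnj4 passed the filter for testing, 77 in all, and the other 15 were not tested.

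The first comparison asks how the loss of the microRNAs went with channel gene levels over both segments. In edgeR's quasi-likelihood test, with p-values adjusted over 17067 genes (Benjamini-Hochberg), 0 of 77 members had an adjusted p under 0.05 for TKO against WT, where 0.357% of all genes did. DESeq2 gave 4 members (Kcng4, Kcnk13, Kcnq5 and Kcns2), where it called 651 of 26446 genes (2.46%), and limma on log2 RPKM gave 0. The 26446 are all genes with a read, also those that edgeR's filter left out, so that share is not a like base for the members. At an unadjusted p under 0.05, 13 members (16.9%) passed in edgeR, 8 with higher and 5 with lower values in TKO, against 19.1% of all genes (10.3% higher and 8.79% lower). The 13 became 7 without both TKO replicate 2 libraries (8.32% of all genes), 7 without lumbar WT replicate 2 (9.57%) and 8 without lumbar TKO replicate 2 (10.9%) or thoracic WT replicate 1 (10.3%). Without lumbar TKO replicate 1 it was 22 (28.1% of all genes), and there Kcng4 and Kcns2 also passed the adjusted threshold, as did 1.1% of all genes. The member count thus moved with the share of all genes. The median log2 change was 0.02 in members and 0.00 in all genes tested, and 39 of 77 members (50.6%) had a value above 0 against 50.1% of all genes. The smallest adjusted p of a member was 0.0838. The missed threshold does not show that levels were equal: the median SE of a member's log2 change was 0.173.

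**Figure D2:**
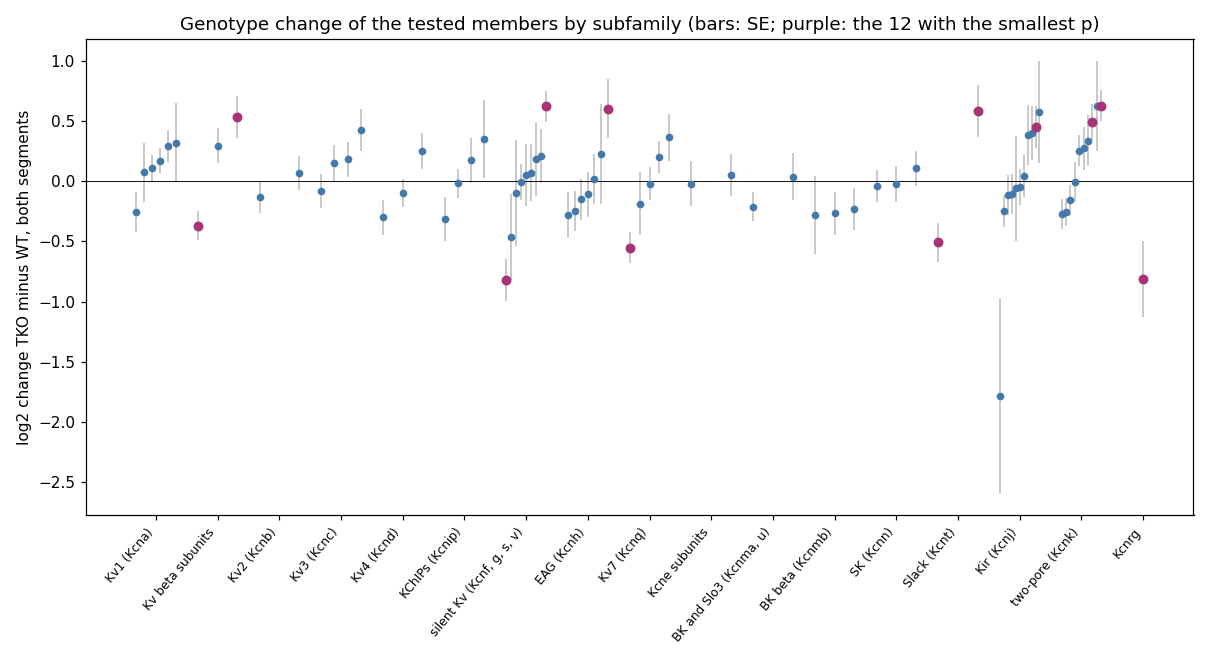
Log2 change, TKO minus WT over both segments, of the 77 tested members by subfamily, with bars of 1 SE. The 12 members of smallest p are in purple and run from -0.82 (Kcns2) to 0.63 (Kcnk13, Kcng4), and no member passed the adjusted threshold.

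In 7 members the 4 TKO and 4 WT libraries did not overlap in CPM, 9.09% of members against 10.7% of all genes. Kcnk13, Kcng4 and Kcnk1 were higher and Kcns2, Kcnq5, Kcnab1 and Kcnk2 lower in TKO, where 5.32% of all genes were higher and 5.37% lower. Without both TKO replicate 2 libraries the groups were apart in 10 members (13%) against 17.8% of all genes.

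Kcnk13 encodes THIK-1, a two-pore channel known as the main background potassium channel of microglia. It had 13.7 and 12.4 CPM in lumbar WT, 21.4 and 18.6 in lumbar TKO, 13.2 and 15.3 in thoracic WT and 23.1 and 21.7 in thoracic TKO. Every TKO library lay above every WT library. The mean was 13.7 ± 1.25 CPM in WT and 21.2 ± 1.9 in TKO (SD, n = 4 each), a log2 change of 0.63 (SE 0.13, edgeR adjusted p = 0.0838). The change was alike in the segments, 0.61 in the lumbar and 0.65 in the thoracic cord, with a difference of 0.04 (edgeR unadjusted p = 0.885). Of the microglia markers, 7 of 8 had a log2 change above 0 and Csf1r and Ctss passed the adjusted threshold. The part of microglia in the Kcnk13 value was not tested.

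Kcng4 encodes Kv6.4, a subunit that forms no channel alone and modifies Kv2 channels, and is known as a marker of fast motor neurons in mice. It had 36.1 and 36.4 CPM in lumbar WT, 36.6 and 46.6 in lumbar TKO, 21.3 and 22.1 in thoracic WT and 50.1 and 40.0 in thoracic TKO. The thoracic WT pair was the lowest and all TKO libraries lay above all WT libraries in CPM. The nearest values were 36.4 CPM in WT and 36.6 in TKO. In RPKM the genotypes overlapped, with 9.03 in lumbar TKO replicate 1 against 9.17 and 9.2 in lumbar WT. The log2 change was 0.63 over both segments (SE 0.13, edgeR adjusted p = 0.0898), 0.20 in the lumbar and 1.05 in the thoracic cord. The summed CPM of 6 motor neuron markers was 89.9 to 130 in WT and 89.3 to 120 in TKO libraries, so these ranges overlapped. In 4 of the 6 markers the difference between segments had the sign it had in Kcng4, above 0, against 49% of all genes. The vesicular acetylcholine transporter Slc18a3 had a log2 change of -0.39 in the lumbar and 0.94 in the thoracic cord (unadjusted p = 0.0122 in edgeR for the thoracic value). The intermediate filament gene Prph had -0.31 and 0.80 (unadjusted p = 0.00435 in edgeR for the thoracic value). Chat had -0.50 and 0.39, Isl1 0.12 and -0.03, and Mnx1 -0.68 and 0.05. Slc5a7 was lower in TKO in both segments, at -0.69 and -0.77. Its change over both segments was -0.73 (unadjusted p = 0.0156 in edgeR), opposite in sign to Kcng4. Over both segments, 3 of the 6 markers were above 0 and 3 below. The difference between segments was 1.34 for Slc18a3, 1.12 for Prph and 0.89 for Chat, with unadjusted edgeR p of 0.0118, 0.00456 and 0.0176, and 0.86 for Kcng4. None of these passed the adjusted threshold, Slc5a7, Isl1 and Mnx1 had differences of -0.073, -0.16 and 0.73, and the part of motor neurons in the Kcng4 value was not tested.

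Kcns2 encodes Kv9.2, another silent subunit that pairs with Kv2. It had 10.9 and 13.9 CPM in lumbar WT, 10.4 and 6.55 in lumbar TKO, 16.5 and 15.6 in thoracic WT and 7.38 and 7.74 in thoracic TKO. All TKO libraries were below all WT libraries, with a mean of 8.01 ± 1.64 against 14.2 ± 2.48 CPM (SD, n = 4 each). The log2 change was -0.82 (SE 0.18, edgeR adjusted p = 0.0942).

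Kcnq5 encodes Kv7.5, a subunit of the M-current. It had 20.3 and 20.4 CPM in lumbar WT, 17.2 and 13.5 in lumbar TKO, 21.8 and 22.3 in thoracic WT and 13.9 and 13.3 in thoracic TKO. TKO lay below WT in every library, with a log2 change of -0.55 (SE 0.13, edgeR adjusted p = 0.111).

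**Figure D3:**
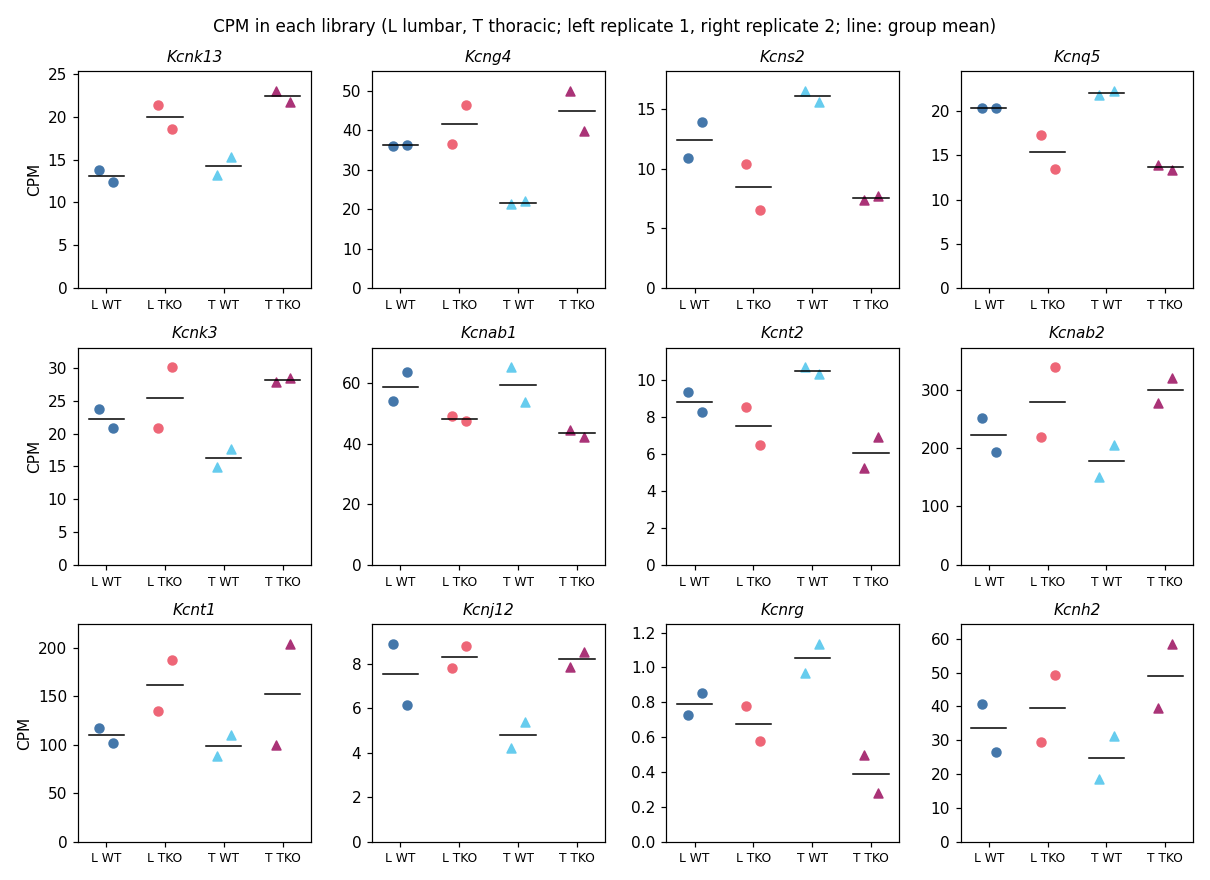
CPM in each of the 8 libraries for the 12 members of smallest p over both segments, with a line at each group mean (2 libraries a group; axes start at 0). Kcnk13 and Kcng4 lie higher and Kcns2 and Kcnq5 lower in all TKO libraries, while Kcnt1 is highest in both TKO replicate 2 libraries.

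Of the other leak channels whose groups were apart, Kcnk1 had 68.0 and 66.4 CPM in lumbar WT, 75.1 and 80.8 in lumbar TKO, 71.2 and 50.3 in thoracic WT and 74.3 and 75.2 in thoracic TKO. The stretch-sensitive channel Kcnk2 (TREK-1) had 26.9 and 25.7, 23.5 and 22.1, 24.9 and 26.5, and 19.2 and 22.5 CPM in the same order of groups. The nearest values of WT and TKO were 71.2 and 74.3 CPM for Kcnk1 and 24.9 and 23.5 for Kcnk2, and the unadjusted p in edgeR was 0.0764 for Kcnk1 and 0.0577 for Kcnk2.

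The Kv beta subunits of small p differed in sign. Kcnab1 had 54.0 and 63.6 CPM in lumbar WT, 49.1 and 47.4 in lumbar TKO, 65.1 and 53.6 in thoracic WT and 44.6 and 42.3 in thoracic TKO, lower in every TKO library (log2 -0.37, SE 0.12, edgeR adjusted p = 0.18). Kcnab2 had 251 and 193 CPM in lumbar WT, 218 and 338 in lumbar TKO, 151 and 205 in thoracic WT and 277 and 320 in thoracic TKO. Lumbar groups overlapped and thoracic groups did not, and the log2 change was 0.53 (SE 0.17, edgeR adjusted p = 0.184). It was 0.31 without both TKO replicate 2 libraries. Kcnab2 lies 2.32 Mb from Mir34a on chromosome 4, and what that distance contributes was not tested.

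The sodium-activated channels also differed in sign. Kcnt1 (Slack) had 118 and 102 CPM in lumbar WT, 135 and 188 in lumbar TKO, 88.4 and 110 in thoracic WT and 100 and 204 in thoracic TKO. The highest values were those of the TKO replicate 2 libraries, and the log2 change of 0.59 (edgeR adjusted p = 0.217) was 0.16 without them. Kcnt2 (Slick) had 9.33 and 8.24 CPM in lumbar WT, 8.54 and 6.5 in lumbar TKO, 10.7 and 10.3 in thoracic WT and 5.21 and 6.9 in thoracic TKO, with a log2 change of -0.51 (edgeR adjusted p = 0.18). Its lumbar groups overlapped.

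Among the others of small p, Kcnk3 had 23.7 and 20.8 CPM in lumbar WT, 20.9 and 30.1 in lumbar TKO, 14.9 and 17.7 in thoracic WT and 27.9 and 28.4 in thoracic TKO. Only its thoracic groups were apart (log2 0.49 over both segments, edgeR adjusted p = 0.162), and the value was 0.35 without both TKO replicate 2 libraries. Kcnh2 (the ERG channel) had 18.5 to 40.6 CPM in WT and 29.5 to 58.4 in TKO, with a log2 change of 0.61 that was 0.24 without those libraries. The inward rectifier Kcnj12 (Kir2.2) had 4.24 to 8.88 CPM in WT and 7.82 to 8.81 in TKO (log2 0.45). Kcnrg, a regulator of Kv channel assembly at 0.28 to 1.13 CPM, had a log2 change of -0.81 and overlaps Dleu2, which held 93.1 reads on average against 13.6 for Kcnrg. Kcnk3 overlaps Gm9899 on the other strand, which held 97.1 reads on average against 423 for Kcnk3.

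Kcnj13 (Kir7.1), an inward rectifier of epithelia such as the choroid plexus, was close to the detection limit. It had 0.838 and 0.0532 CPM in lumbar WT, 0.155 and 0.232 in lumbar TKO, 1.12 and 1.6 in thoracic WT and 0 and 0.505 in thoracic TKO. The count of 0 allows up to 0.166 CPM, from 3 reads and for counting error only. WT and TKO overlapped in the lumbar but not in the thoracic cord. The gene overlaps Gigyf2, which held 1169 reads on average against 10.6 for Kcnj13.

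Kcnip1, a Kv4-binding protein, was picked once its values were known because its direction depended on which reads were counted. Its total gene reads gave 470 and 405 CPM in lumbar WT, 251 and 586 in lumbar TKO, 241 and 308 in thoracic WT and 256 and 682 in thoracic TKO, and a log2 change of 0.35 (SE 0.33). Of these reads 80.8% were in introns and only 20.5% were placed uniquely. Exon reads scaled to the gene reads of the library (CPM) were 94.1 and 101 in lumbar WT, 66.6 and 65.3 in lumbar TKO, 85.4 and 83.6 in thoracic WT and 51.3 and 56.3 in thoracic TKO. On exon reads every TKO library was below every WT library, with a log2 change of -0.60 (SE 0.11, edgeR adjusted p = 0.0744), and unique reads gave -0.57 (edgeR adjusted p = 0.0608). Without Kcnip1, introns held 4.97% to 6.79% of the members' reads, against 9.97% to 22.1% with it.

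By segment, 0 members had an adjusted p under 0.05 for TKO against WT in the lumbar cord (edgeR, all genes 0.041%) and 0 in the thoracic cord (all genes 0.0352%). DESeq2 gave 0 and 3 (Kcng4, Kcnk3 and Kcns2), and limma on log2 RPKM 0 and 0. DESeq2 called 41 and 417 of 26446 genes (0.155% and 1.58%), again a share of all genes with a read. At an unadjusted p under 0.05 there were 3 members (3.9%) in the lumbar cord against 5.7% of all genes, and 18 (23.4%), 8 higher and 10 lower, in the thoracic cord against 19.9% (11.7% higher and 8.23% lower). The lumbar count was 7 without lumbar TKO replicate 1 (9.49% of all genes), 1 without lumbar WT replicate 2 (2.98%) and 5 without thoracic TKO replicate 2 (5.75%). The thoracic count was 11 without thoracic TKO replicate 2 (7.89%) and 8 without thoracic WT replicate 1 (5.82%). The change was larger in size in the thoracic cord for 53 of 77 members (68.8%), against 67.6% of all genes, and had the same sign in both segments for 48 (62.3%), against 65.6%. The shares for size and sign are near those of all genes. In the thoracic cord, members lower at an unadjusted p under 0.05 made up 13% against 8.23% of all genes, and higher ones 10.4% against 11.7%.

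**Figure D4:**
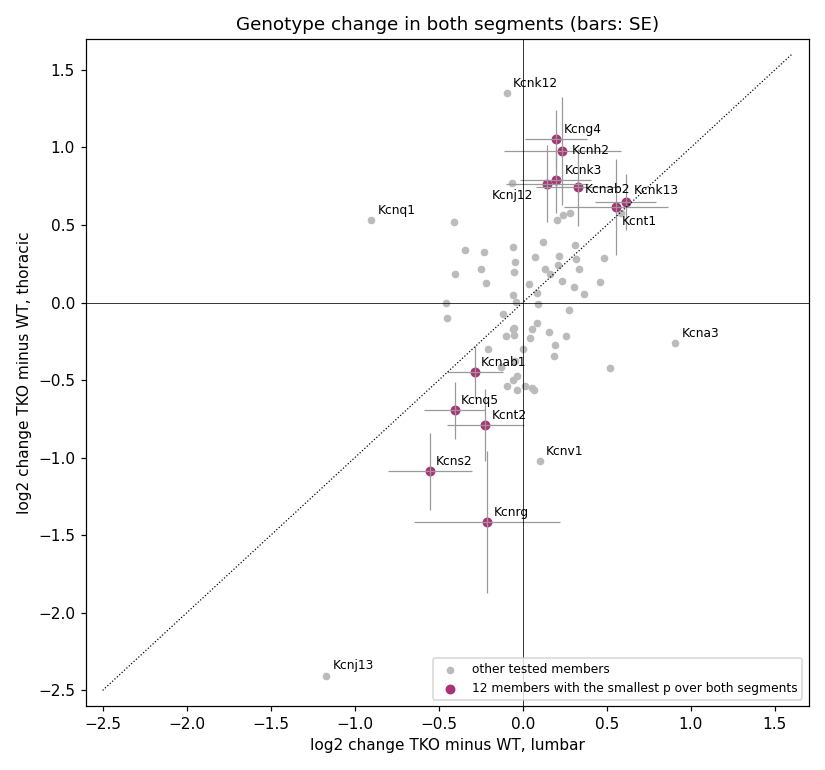
Log2 change TKO minus WT in the lumbar (x) against the thoracic cord (y) for the 77 tested members, with bars of 1 SE on the 12 of smallest p and a dotted line of equality. Kcng4 lies at 0.20 and 1.05, and Kcnk13 near the line at 0.61 and 0.65.

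For the difference between the segments' genotype changes (thoracic minus lumbar), 0 members passed the adjusted threshold (edgeR, all genes 0.00586%, DESeq2 0 members) and 5 had an unadjusted p under 0.05, 6.49% against 3.5% of all genes. That count was 2 to 15 when single libraries were left out. It was 15 without lumbar TKO replicate 2 (11.2% of all genes), 8 without thoracic WT replicate 2 (8.51%), 3 without lumbar TKO or WT replicate 1 (1.48% and 1.05%), and 2 without thoracic TKO or WT replicate 1 (2.41% and 1.05%). Kcng4 had a difference of 0.86 (unadjusted p = 0.0094 in edgeR, adjusted p = 0.852). The inward rectifiers Kcnj6 (GIRK2) and Kcnj3 (GIRK1), which form channels opened by G proteins, had differences of -0.94 and -0.61. Kcnj6 had 8.6 and 7.39 CPM in lumbar WT, 11.8 and 11.1 in lumbar TKO, 11.5 and 14.2 in thoracic WT and 7.49 and 11.7 in thoracic TKO. Its lumbar TKO libraries were both above lumbar WT, while its thoracic groups overlapped. Kcnj3 had 32.9 and 32.9, 38.5 and 29.7, 48.5 and 39.3, and 28.9 and 31.0 CPM in the same order of groups, and its thoracic groups did not overlap. Kcnq1 had a difference of 1.43 on 0.817 to 2.68 CPM, and its locus overlaps the antisense gene Kcnq1ot1, which held 136 reads on average against 28.4 for Kcnq1. The subunit Kcne1l had a difference of 0.93.

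Between the segments over both genotypes, 0 members had an adjusted p under 0.05 (edgeR, all genes 0.082%, DESeq2 0 members), and in 0 members were the 4 thoracic and 4 lumbar libraries apart, against 1.17% of all genes. 3 members (3.9%) had an unadjusted p under 0.05, against 2.41% of all genes. That count was 0 without lumbar TKO replicate 2 (1.86% of all genes), 1 without lumbar WT replicate 1 (1.61%) and 6 without lumbar TKO replicate 1 (5.16%). The fast-firing channel Kcnc2 (Kv3.2) had 29.6 to 42.8 CPM in lumbar and 37.2 to 55.2 in thoracic libraries (log2 0.40). In WT it had 29.6 and 38.3 lumbar against 52.7 and 55.2 thoracic CPM. Its TKO libraries overlapped at 42.8 and 34.4 against 37.2 and 47.9 CPM. The transient-current channel Kcnd3 (Kv4.3) had 31.5 to 37.2 and 35.1 to 45.7 CPM (log2 0.30). In WT it had 33.3 and 33.3 against 45.7 and 44.5 CPM, while TKO libraries overlapped at 37.2 and 31.5 against 35.1 and 41.8. Kcng4 had -0.31, with 36.1 and 36.4 lumbar against 21.3 and 22.1 thoracic CPM in WT, while TKO libraries overlapped at 36.6 and 46.6 against 50.1 and 40.0 CPM.

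Of the seed matches, 19 of 77 tested members (24.7%) held CACTGCC in the 3' UTR, against 17.2% of tested coding genes, and 8 (10.4%) the 8-base form, against 6%. Members' 3' UTRs were longer, with a median of 1795 bases against 1184, and 23 of 77 genes (29.9%) spanned over 100 kb against 15.5% of tested coding genes. The median log2 change in TKO was 0.17 for the 19 members with a match, 15 of them above 0, and -0.02 for the 58 without, 24 above 0. For all tested coding genes the medians were 0.03 with a match, 1393 of 2585 (53.9%) above 0, and -0.01 without, 6064 of 12445 above 0. The 15 members include Kcnip1, which had -0.60 on exon reads. On exon reads the 19 had a median of 0.09 with 14 above 0, where 54.4% of coding genes with a match were. Unique reads gave 0.11 and limma on log2 RPKM 0.08, each with 14 above 0. With the mitochondrial share as a covariate the median was 0.05, with 10 above 0. Without both TKO replicate 2 libraries, 10 of the 19 were above 0 with a median of 0.05, and 10 were without thoracic TKO replicate 2 alone. Of the 19, Kcng4, Kcnab2, Kcnk3 and Kcnh2 had higher values at an unadjusted p under 0.05 and Kcnrg lower, 5 of 19 (26.3%) against 527 of 2585 coding genes with a match (20.4%). Among the 8 with the longer form, 5 had a log2 change above 0, against 502 of 902 coding genes (55.7%).

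Partners of these channels were described from a list of 39 genes, among them HCN channels, the Kv4 subunits Dpp6 and Dpp10, and the proteins that hold Kv1 at the juxtaparanode of myelinated axons. Of 37 tested, 0 passed the adjusted threshold for TKO against WT in edgeR. At an unadjusted p under 0.05 in edgeR, 8 were higher and 8 lower (21.6% each), against 10.3% and 8.79% of all genes. These partner counts are not given here without both TKO replicate 2 libraries, so how far they rest on them is not shown. The 4 of smallest p were Akap5 (log2 -0.67, edgeR adjusted p = 0.0703), an anchoring protein for kinases, Lgi4 (0.64, adjusted p = 0.0963), a secreted protein needed for peripheral myelination, Cntn2 (0.70, adjusted p = 0.145), a juxtaparanodal adhesion protein, and Dpp10 (-0.51, adjusted p = 0.149). Oligodendrocyte markers were above 0 in 10 of 10 genes in the same comparison, with Opalin and Klk6 past the threshold, and their part in the Cntn2 value was not tested.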

How the data were processed

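RNA was taken from dissected cord segments and libraries were made with a stranded kit for messenger RNA, per the labels' protocols. The deposited tables hold whole-number read counts per gene (exon, intron and total, per the file headers) and the authors' RPKM. Per the submitters' processing notes the build was mm10. For the aligner, the counting program and the strand setting, nothing was given in the sources used here, so a gene and an antisense partner could not be told apart. Total gene counts as deposited were tested in edgeR 4.0.16 (R 4.3.3; TMM, filterByExpr, robust quasi-likelihood fit, Benjamini-Hochberg adjustment over 17067 genes, threshold 0.05). All 8 libraries entered 1 fit with 4 group means. CPM uses TMM-adjusted library sizes. DESeq2 1.42.0 and limma 3.58.1 (log2(RPKM + 0.5)) were alternatives. Code was tested on simulated counts.

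Members, lists and tests were chosen with earlier results of these data known. Named members were the 12 of smallest p over both segments, the 6 of smallest p in each other comparison, the highest of each subfamily, those next to the detection limit and those with an 8-base match. Kcnip1 was added after its values were seen. A few members that the rule names are not reported here. In the outlier check, 80 sets of 4 libraries were examined.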

Additional observations from a re-analysis of the deposited data

Results flagged for a closer look

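In 6 of 80 sets of 4 libraries of 1 genotype, 1 library lay far from the other 3 by Dixon's ratio of gap to range. For 4 draws from 1 population, chance flags about 1 set in 20. Each set here joined lumbar and thoracic libraries, and all sets drew on the same 8 libraries, so that rate need not hold. All 6 were in TKO libraries. Thoracic TKO replicate 2 was high in Kcna6, with 102 CPM against 88.4 to 89.3 in the others, and in Kcng2, with 2.69 against 1.66 to 1.8. Kcna6 overlaps the antisense gene Gm26673, which held 284 reads on average against 1604 for Kcna6. Lumbar TKO replicate 2 was high in Kcnk1, with 80.8 against 74.3 to 75.2 CPM. Lumbar TKO replicate 1 was high in Kcnd2, with 71.4 against 46.4 to 49.8 CPM, and in Kcnq5, with 17.2 against 13.3 to 13.9. Thoracic TKO replicate 1 was low in Kcnj6, with 7.49 against 11.1 to 11.8 CPM.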

How the results depend on the processing

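The number of members called for TKO against WT over both segments, 0 in the reported fit, was 4 in DESeq2 (651 of 26446 genes called) and 4 with the mitochondrial share as a covariate (807 of 17067), Kcng4, Kcnk13, Kcnq5 and Kcns2 in both, 3 with no filter (310 of 26446), and 0 to 2 when single libraries were left out. In the thoracic cord it was 3, 8 and 1 in the first 3 of these, with 417, 987 and 65 genes called. DESeq2 gave an adjusted p to 69 members over both segments and 55 in the thoracic cord. The replicate block called 0 members in each comparison. Deviations of same-numbered libraries correlated at 0.313 to 0.442 in the 3 pairs of groups without lumbar WT and at -0.33 to -0.208 in the 3 with it, so the numbers were not taken to pair the libraries. After these correlations were seen, the lumbar WT numbers were exchanged in a crossed replicate block, which called 17 members over both segments (4760 of 17067 genes), 23 in the thoracic and 1 in the lumbar cord, 2 for the difference between segments and 0 between segments. That exchange rests on the data and not on the labels. Apart from it, lumbar, difference and segment counts were 0 in every alternative run.

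The median log2 change of members stayed within -0.06 to 0.07 for genotype and -0.03 to 0.05 for segment. Kcnip1 changed sign to -0.60 with exon reads, -0.57 with unique reads, -0.58 with limma, -0.27 with the mitochondrial covariate and -0.45 without both TKO replicate 2 libraries, and gave -0.081 to 0.63 when single libraries were left out (-0.013 and -0.081 without lumbar or thoracic TKO replicate 2). The cause was not tested. No member of smallest p in a comparison changed sign in that comparison, the crossed block aside. Every named member was planned for such runs. After the values were seen, single values were kept for members of smallest p and Kcnip1, because many others were near 0. Of the others, 13 of 29 crossed 0 for genotype and 23 of 35 for segment, and none was called in any alternative apart from the crossed block (not examined there). Kcnk1 gave 0.14 to 0.39 for genotype. 2 libraries a group limit what can be detected.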
